A study of Homo sapiens with 12 samples.

Results

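RMRP, RPPH1, SCARNA2, SNORA45, SNORA29 and SNORD89 are 6 genes of small, non-coding nuclear RNAs that were among 23284 gene symbols listed for each of 12 RNA sequencing libraries. They were chosen because their FPKM (fragments per kilobase of exon, scaled to the fragments mapped) differed between irradiated and unirradiated cells at 48 h, so their values in that comparison are given as a description, with no test. The libraries were made from PANC-1, a human pancreatic cancer cell line, carrying a fluorescent ZsGreen-degron reporter that builds up when proteasome activity is low. Degron (++) cells were sorted from the brightest part of the ZsGreen-positive cells. Degron (−) cells carry the same reporter but hold few ZsGreen-positive cells.

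Each population was sampled with 2 libraries at 48 h without irradiation (0 Gy), 2 at 30 h with 4 Gy and 2 at 48 h with 4 Gy, and the labels do not give the start from which the hours run. Those taken as degron (−) are called ZsGreen-negative in the titles of the libraries and d+ in their descriptions and in the headers of the files, and the names of the populations here follow the titles. Nothing in the labels says that the 2 libraries of a group came from separate cultures, so a p-value measures only the spread between these libraries. Epithelial keratins were high in every library (KRT8 at 1732 to 2981 FPKM, KRT19 at 667 to 951 FPKM), while markers of leukocytes, endothelium, acinar and endocrine cells (PTPRC, PECAM1, PRSS1, CPA1, CHGA and INS) did not exceed 0.344 FPKM. The populations differed widely in other genes, with VIM between 13.2 and 2711 FPKM over the 12 libraries. In bulk RNA, a different number of cells holding an RNA and a different amount per cell cannot be told apart.

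RMRP and RPPH1 are the RNA subunits of a related pair of ribonucleoprotein enzymes. RNase MRP, built on RMRP, cuts the ribosomal RNA precursor, and RNase P, built on RPPH1, removes the 5′ leader of precursor tRNAs, while the enzymes share most of their proteins. Both RNAs are transcribed by RNA polymerase III. SCARNA2 is a small Cajal body-specific RNA, a class that guides the modification of spliceosomal RNAs. SNORA45 and SNORA29 belong to the H/ACA class of small nucleolar RNAs, which guide pseudouridylation, and SNORD89 belongs to the C/D class, which guides 2′-O-methylation. Most small nucleolar RNAs of human cells are cut from introns of host genes. None of these mature RNAs ends in a poly(A) tail of the kind found on mRNA, and the libraries were prepared with a stranded mRNA kit, which selects for such tails.

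The RNAs are shown 5′ to 3′ and in DNA letters, whole or as 300 bases, because their length sets what a sequenced fragment was worth in FPKM and because letters typical of their class can be marked in capitals. They were read from GENCODE v29 on GRCh38, whereas the submitters' processing notes name hg19, so the coordinates are those of the reference and not of the files. RMRP lies at chr9:35657751-35658018 (minus strand, 268 bases) and RPPH1 at chr14:20343075-20343407 (minus strand, 333 bases). Capitals in these mark the letters GNAANNTC, found on the given strand at 1 place in RMRP and 2 in RPPH1, of which bases 1 to 300 are shown (chr14:20343108-20343407). They occur in 28.9% of 7523 annotated transcripts of 250 to 350 bases.
RMRP: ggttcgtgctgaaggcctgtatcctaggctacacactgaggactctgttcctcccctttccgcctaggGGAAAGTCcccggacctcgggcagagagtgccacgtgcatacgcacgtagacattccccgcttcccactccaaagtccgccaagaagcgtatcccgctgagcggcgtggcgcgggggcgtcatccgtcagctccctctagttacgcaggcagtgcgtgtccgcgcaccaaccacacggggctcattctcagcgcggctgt
RPPH1: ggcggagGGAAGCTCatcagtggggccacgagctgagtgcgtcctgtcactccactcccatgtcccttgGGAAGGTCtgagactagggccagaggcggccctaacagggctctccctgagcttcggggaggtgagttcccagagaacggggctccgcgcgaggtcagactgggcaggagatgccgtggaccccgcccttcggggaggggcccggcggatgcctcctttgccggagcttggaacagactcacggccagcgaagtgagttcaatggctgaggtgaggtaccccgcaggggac

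SCARNA2 lies at chr1:109100193-109100612 (plus strand, 420 bases) and SNORD89 at chr2:101272936-101273049 (minus strand, 114 bases). Capitals mark the letters TGATGA and CTGA of the boxes C and D, searched on the given strand and anywhere in the RNA. SCARNA2 held TGATGA at 1 place and CTGA at 2, and SNORD89 held them at 1 and 3. Bases 121 to 420 of SCARNA2 are shown (chr1:109100313-109100612). Of 947 annotated small nucleolar RNA transcripts of up to 250 bases, 33.2% hold both. SCARNA2, annotated as a small Cajal body-specific RNA and longer, is outside this set.
SCARNA2: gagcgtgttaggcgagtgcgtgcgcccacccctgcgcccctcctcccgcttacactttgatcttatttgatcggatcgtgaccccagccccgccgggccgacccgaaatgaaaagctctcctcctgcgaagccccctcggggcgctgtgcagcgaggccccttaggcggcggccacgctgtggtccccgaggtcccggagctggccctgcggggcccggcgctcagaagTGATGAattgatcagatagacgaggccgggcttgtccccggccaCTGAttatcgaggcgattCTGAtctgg
SNORD89: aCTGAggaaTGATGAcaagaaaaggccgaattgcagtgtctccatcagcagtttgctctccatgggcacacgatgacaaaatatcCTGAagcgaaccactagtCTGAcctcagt

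SNORA45 lies at chr11:8685439-8685569 (plus strand, 131 bases), where GENCODE names it SNORA3B, and SNORA29 at chr6:159785594-159785733 (minus strand, 140 bases). Capitals mark the letters found 3 bases before the 3′ end, ACA in SNORA45 and ATA in SNORA29. ACA stands at that place in 29.7% of the 947 transcripts and ATA in 5.28%. SNORA45 was identical to SNORA3, an H/ACA RNA named alike, at 98 of 137 aligned positions (71.5%).
SNORA45: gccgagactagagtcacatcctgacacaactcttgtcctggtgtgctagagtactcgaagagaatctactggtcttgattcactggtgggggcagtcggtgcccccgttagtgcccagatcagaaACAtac
SNORA29: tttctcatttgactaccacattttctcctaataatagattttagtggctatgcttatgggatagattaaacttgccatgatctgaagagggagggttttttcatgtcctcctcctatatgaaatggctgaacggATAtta

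The FPKM of these RNAs rested on whole numbers of fragments, which could be recovered from the values. Within a library, FPKM of small RNA genes lay on multiples of what 1 fragment was worth for an RNA of that length. A single fragment of SCARNA2 was worth 0.398 FPKM at the depth of the first degron (++) library at 0 Gy. A fragment of RPPH1 was worth 0.630 FPKM and a fragment of RMRP 1.23 FPKM. For the shorter RNAs, 1 fragment was worth 15.8 FPKM for SNORA29, 22.0 FPKM for SNORA45 and 47.8 FPKM for SNORD89. Equal FPKM thus stood for far fewer fragments in the snoRNAs than in RMRP or RPPH1, and levels are compared below between conditions rather than between genes.

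**Figure D1:**
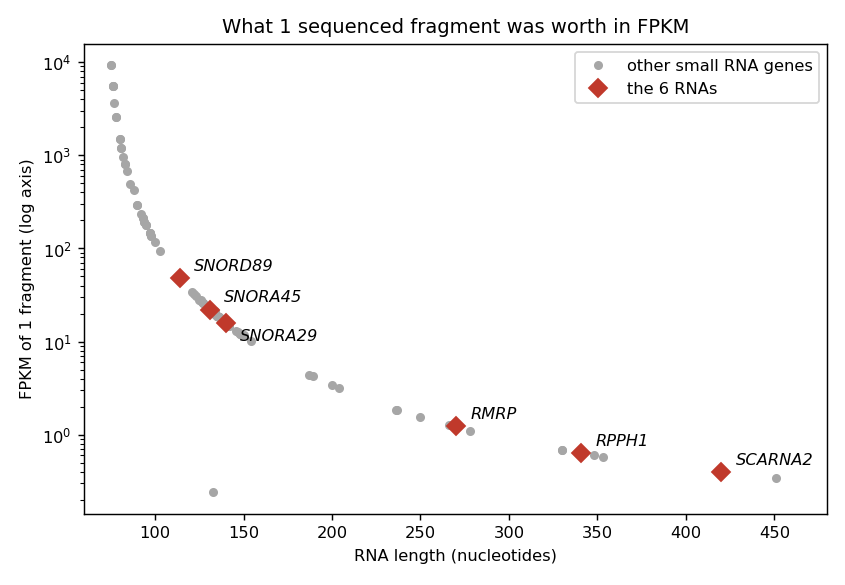
FPKM that 1 fragment was worth (vertical, log axis) against RNA length in nucleotides (horizontal) for the 6 RNAs (red diamonds) and other small RNA genes (grey points). The value falls steeply with length, from 47.8 FPKM in SNORD89 to 0.398 FPKM in SCARNA2, and SNORA17 is the single grey point far below the others.

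The recovery was checked on other small RNA genes whose own values had already given a step. Using the step of other genes of the same length, 696 of 734 values (94.8%) came out whole within 0.05 fragments or 0.5%, and in 99 of 104 genes all values did. For the 6 RNAs, the step was fitted to whole numbers within 6% of that expected from length, for SNORD89 from 50.1 to 47.8 FPKM. Values of up to 60 fragments then differed from whole numbers by 0.002 fragments or less, which describes the fit and is no check of it. What 1 fragment was worth in each library gave relative depths from 0.875 to 1.19 for the 12 libraries, while the total number of reads is unknown. Over the 12 libraries, RPPH1 had 614 fragments and RMRP 536, against 28 of SNORA45, 17 of SCARNA2, 14 of SNORA29 and 11 of SNORD89. RMRP and RPPH1 were above 0 in every library, whereas SCARNA2 was at 0 in 5 libraries, SNORD89 in 4, and SNORA45 and SNORA29 in 2 each.

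RMRP, the RNA of RNase MRP, was highest in degron (++) cells at 48 h after 4 Gy. These libraries had 241 and 157 FPKM (187 and 130 fragments), against 23.3 and 20.3 FPKM (19 and 17 fragments) at 0 Gy. At 30 h after 4 Gy they had 23.9 and 49.0 FPKM (17 and 40 fragments). Both libraries at 48 h after 4 Gy were far above the other 4 of this population, and the 30 h libraries were unequal, 1 of them at the level of unirradiated cells. The mean at 48 h was 199 ± 59.4 FPKM after 4 Gy and 21.8 ± 2.12 FPKM at 0 Gy (SD, n = 2 each), and the smallest ratio between any library of one group and any of the other was 6.72. From the fragments, scaled for depth, the ratio was 9.05, with an exact 95% interval of 6.40 to 13.2. Such intervals cover counting error only, since reads copied by PCR were not told apart, and between doses at 48 h they are no test, because the genes were chosen there.

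In degron (−) cells, RMRP had 62.0 and 24.5 FPKM (60 and 22 fragments) at 48 h after 4 Gy, and 14.4 and 12.4 FPKM (12 and 10 fragments) at 0 Gy. At 30 h after 4 Gy it had 13.8 and 12.1 FPKM, again 12 and 10 fragments. Both libraries at 48 h after 4 Gy were above the other 4, but they differed from each other, with exact 95% Poisson intervals of 45.8 to 77.2 and 13.8 to 33.3 fragments. The lower of them overlapped in its interval with the unirradiated library of 12 fragments (6.20 to 21.0). The ratio of 4 Gy to 0 Gy was 3.28 (95% interval 2.03 to 5.51, counting error only), and between single libraries it ran from 1.71 to 4.99.

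RPPH1, the RNA of RNase P, followed the same order in degron (++) cells. It had 156 and 95.8 FPKM (237 and 155 fragments) at 48 h after 4 Gy, and 17.6 and 9.20 FPKM (28 and 15 fragments) at 0 Gy. At 30 h after 4 Gy it had 18.7 and 27.6 FPKM (26 and 44 fragments). The 48 h libraries after 4 Gy stood apart from all others, with a mean of 126 ± 42.9 FPKM against 13.4 ± 5.96 FPKM at 0 Gy (SD, n = 2 each). The ratio of depth-scaled fragments was 9.37 (95% interval 6.83 to 13.2, counting error only), and the smallest ratio between single libraries was 5.44.

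In degron (−) cells, RPPH1 had 24.9 and 8.57 FPKM (47 and 15 fragments) at 48 h after 4 Gy. It had 7.98 and 3.82 FPKM (13 and 6 fragments) at 0 Gy, and 8.25 and 8.69 FPKM (14 fragments in each library) at 30 h after 4 Gy. Only the first library at 48 h after 4 Gy stood above the rest. The second was 1.07 times the higher unirradiated library, with 15 fragments (Poisson interval 8.40 to 24.7) against 13 (6.92 to 22.2), and lay between the 30 h libraries. Pooled over the libraries the ratio of 4 Gy to 0 Gy was 2.87 (95% interval 1.69 to 5.08, counting error only), a value that rests on the first library.

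**Figure D2:**
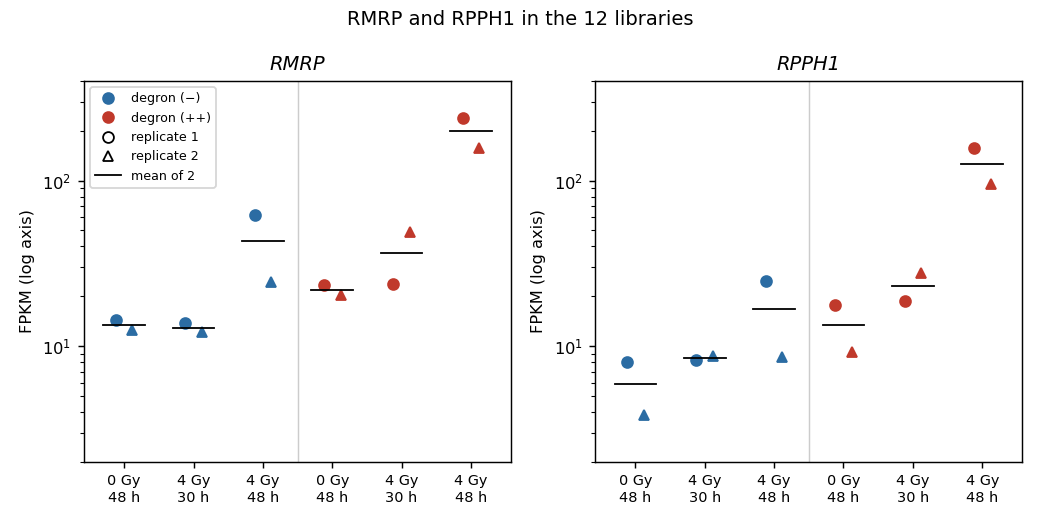
FPKM (vertical, log axis) of RMRP and RPPH1 in the 12 libraries by population, dose and time, with circles for replicate 1, triangles for replicate 2 and lines for the mean. The red points at 4 Gy 48 h, 157 and 241 FPKM for RMRP, lie above all others, and the blue points of that condition are unequal.

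Ordered by mean FPKM, RMRP was lowest in degron (−) cells at 30 h (12.9 ± 1.18) and at 0 Gy (13.4 ± 1.37). Degron (++) cells at 0 Gy (21.8 ± 2.12) and at 30 h (36.4 ± 17.8) came next, then degron (−) cells at 48 h after 4 Gy (43.3 ± 26.5) and degron (++) cells at 48 h after 4 Gy (199 ± 59.4; SD, n = 2 each). Neighbours in this order overlapped between the lowest pair of groups and between the fourth and the fifth. At the other steps the libraries did not overlap, although unirradiated degron (++) cells and those at 30 h were separated only by 23.3 against 23.9 FPKM. For RPPH1 the means were 5.90 ± 2.94 in unirradiated degron (−) cells, 8.47 ± 0.317 in degron (−) cells at 30 h and 13.4 ± 5.96 in unirradiated degron (++) cells. Degron (−) cells at 48 h after 4 Gy had 16.7 ± 11.5, followed by 23.2 ± 6.31 and 126 ± 42.9 in irradiated degron (++) cells at 30 h and 48 h. Here the fourth group overlapped with the third and with the fifth, and the other neighbours did not overlap.

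In every condition, both degron (++) libraries had more RMRP and more RPPH1 than both degron (−) libraries. At 30 h after 4 Gy this order held for 43.5% of all tested genes. The share at 48 h was not computed, so nothing is read from this order. The ratio of depth-scaled fragments between the populations was 1.63 for RMRP (95% interval 0.930 to 2.90) and 2.25 for RPPH1 (1.28 to 4.08) in unirradiated cells. At 48 h after 4 Gy it was 4.49 for RMRP (3.51 to 5.80) and 7.34 for RPPH1 (5.61 to 9.76), all with counting error only. All these libraries at 48 h took part in choosing the genes.

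RMRP and RPPH1 moved together over the libraries. Their fragments had a ratio of RMRP to RPPH1 between 0.654 and 1.67, although either RNA varied much more between libraries. At 48 h after 4 Gy the ratio was 0.789 and 0.839 in degron (++) cells, and 1.28 and 1.47 in degron (−) cells. The unequal pairs were unequal in the same way, as the first degron (−) library at 48 h after 4 Gy and the second degron (++) library at 30 h held more of both RNAs than their replicates.

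**Figure D3:**
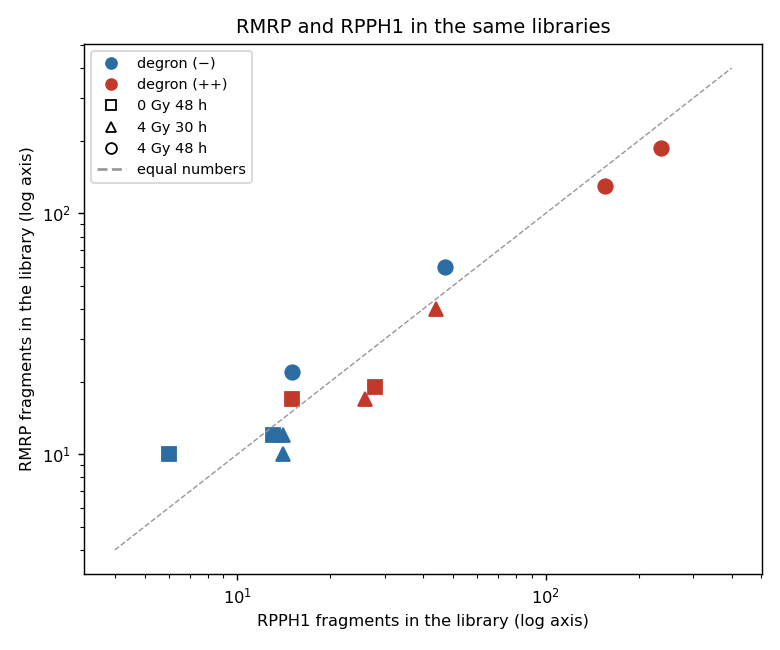
Fragments of RMRP (vertical) against fragments of RPPH1 (horizontal) in each of the 12 libraries, both on log axes, with squares for 0 Gy 48 h, triangles for 4 Gy 30 h and circles for 4 Gy 48 h. The points run along the dashed line of equal numbers, and the red circles, with 187 and 130 RMRP fragments, are at its upper end.

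Other small RNA genes were summed in the same libraries. At equal depth, the 134 of 418 other small RNA genes for which a step could be found gave 363 and 443 fragments in unirradiated degron (++) cells. They gave 365 and 454 at 30 h after 4 Gy, and 620 and 407 at 48 h. In degron (−) cells the sums were 341.5 and 284.5 at 0 Gy, 224.5 and 304 at 30 h, and 347 and 263 at 48 h after 4 Gy. The first degron (++) library at 48 h after 4 Gy had the highest sum, and its replicate was within the range of the other degron (++) libraries. The sums include SNORA17, with a step of 0.240 FPKM, against 20.4 FPKM for SNORA10, also of 133 bases. Its fragments may therefore be overcounted. Sums without it were not computed, so these sums and the values per 100 fragments are uncertain by an unknown amount. Per 100 fragments of the other genes, these libraries held 31.6 and 31.4 fragments of RMRP, against 5.23 and 3.74 at 0 Gy and 5.33 and 8.79 at 30 h. In degron (−) cells RMRP stood at 14.6 and 7.59 at 48 h after 4 Gy, against 3.43 and 3.56 at 0 Gy. RPPH1 stood at 40.1 and 37.4 per 100 in degron (++) cells at 48 h after 4 Gy, against 7.71 and 3.30 at 0 Gy, and at 11.4 and 5.17 against 3.71 and 2.14 in degron (−) cells. On this scale, with that uncertainty, the libraries of the irradiated group at 48 h were above those at 0 Gy for both RNAs in both populations. For RPPH1 in degron (−) cells, the second of them, at 5.17, lay between the 30 h libraries, at 5.833 and 4.545. Its sum of other small RNAs (263) was below that of the first unirradiated library (341.5), which widened the difference in RPPH1 between them. For RMRP in degron (−) cells, both libraries at 48 h after 4 Gy were above both at 30 h.

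SCARNA2, the Cajal body RNA, had 2.92 and 1.56 FPKM in degron (++) cells at 48 h after 4 Gy, which are 7 and 4 fragments. It had 0.398 and 0 FPKM (1 and 0 fragments) at 0 Gy, and 0.455 and 0.794 FPKM (1 and 2 fragments) at 30 h. Both libraries at 48 h after 4 Gy were above the rest, with a depth-scaled ratio to 0 Gy of 11.3 whose 95% interval, 1.64 to 487, covers counting error only. In degron (−) cells no library had more than 1 fragment: 0 and 0 at 0 Gy, 1 and 0 at 30 h, and 1 and 0 at 48 h after 4 Gy, where 1 fragment was 0.335 FPKM. A difference in degron (−) cells was not detectable at this depth, since a library at 0 allows up to 3 fragments.

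SNORA45, of the H/ACA class, had 92.5 and 86.6 FPKM in degron (++) cells at 48 h after 4 Gy, against 22.0 and 21.5 FPKM at 0 Gy and 50.4 and 44.0 FPKM at 30 h. These near-equal pairs are 4 and 4, 1 and 1, and 2 and 2 fragments. The ratio of 4 Gy to 0 Gy was 4.11, with a 95% interval for counting error of 0.821 to 39.8. In degron (−) cells it was lower with 4 Gy at 48 h, with 37.1 and 60.04 FPKM (2 and 3 fragments) against 86.0 and 112 FPKM (4 and 5 fragments) at 0 Gy, and it was at 0 in both libraries at 30 h. The ratio was 0.488 (0.129 to 1.62). The populations thus moved in opposite directions on 5 fragments or fewer in any library, and both intervals included equality.

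SNORA29, of the same class, had a single fragment in each of the 6 degron (++) libraries, which gave 15.4 to 18.1 FPKM. Its FPKM in degron (−) cells were 0 and 0 at 0 Gy, 29.6 and 15.6 (2 and 1 fragments) at 30 h, and 53.2 and 14.4 (4 and 1 fragments) at 48 h after 4 Gy. Both irradiated libraries at 48 h were above the unirradiated ones, which were at 0. A library at 0 here allows up to 3 fragments, or 46.3 and 48.0 FPKM, which is above the mean of the irradiated libraries (33.8 FPKM), so no fold is given.

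SNORD89, of the C/D class, had no more fragments with 4 Gy than without at 48 h in either population. In degron (++) cells it had 95.7 and 46.6 FPKM (2 and 1 fragments) at 0 Gy, 0 and 0 at 30 h, and 50.2 and 47.0 FPKM (1 and 1) at 48 h after 4 Gy. In degron (−) cells it had 46.7 and 48.4 FPKM (1 and 1) at 0 Gy, 134 and 47.2 FPKM (3 and 1) at 30 h, and 0 and 0 at 48 h after 4 Gy. No fold between 4 Gy and 0 Gy is given from the fragments of this RNA, since none of these 4 groups held more than 3 fragments. A library at 0 allows up to 121 to 164 FPKM for this RNA.

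**Figure D4:**
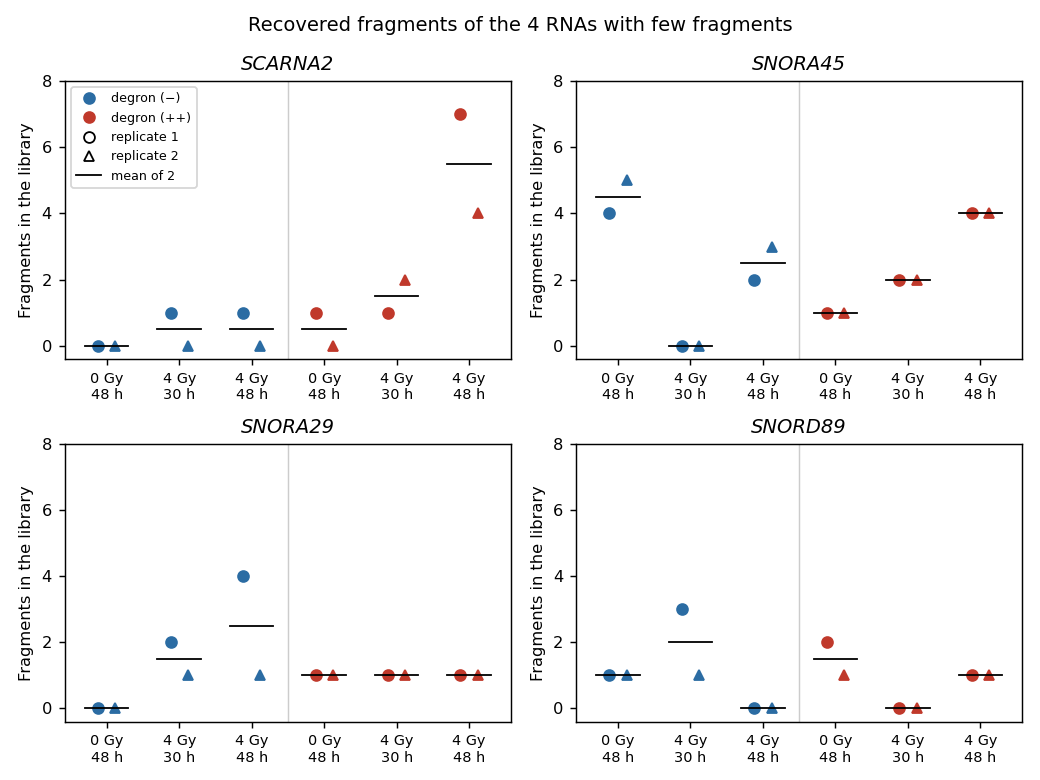
Recovered fragments (vertical) of SCARNA2, SNORA45, SNORA29 and SNORD89 in the 12 libraries by population, dose and time, with circles for replicate 1, triangles for replicate 2 and lines for the mean. No value exceeds 7 fragments, and many pairs of replicates coincide at 0, 1 or 2.

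At 48 h after 4 Gy the higher level therefore held in both replicates of degron (++) cells for RMRP, RPPH1, SCARNA2 and SNORA45, in the sense that both irradiated libraries were above both unirradiated ones. In degron (−) cells this was so for RMRP, RPPH1 and SNORA29, but for the last 2 the second irradiated library was barely higher. It was 1.07 times the higher unirradiated library for RPPH1 (15 against 13 fragments) and had 1 fragment against 0 for SNORA29. All tested genes are the background, of which 24.6% had both irradiated libraries above both unirradiated ones in the degron (++) population and 27.3% in the degron (−) population, and since the genes were chosen on this contrast nothing is read from the counts. On the log2(FPKM + 1) scale, which understates the change of genes with low FPKM, the differences in degron (++) cells were 3.10 for RMRP, 3.16 for RPPH1, 1.42 for SCARNA2 and 1.99 for SNORA45. In degron (−) cells they were 1.48 for RMRP, 1.26 for RPPH1 and -1.04 for SNORA45. SNORA29 differed by 0.04 and SNORD89 by -0.45 in degron (++) cells, where no group of either held more than 3 fragments. The value of SCARNA2 in degron (++) cells depends on the pseudocount, and was 3.33 with a pseudocount of 0.1. In degron (−) cells SCARNA2, SNORA29 and SNORD89 each had a group at 0. Their differences depend on the pseudocount too and are left out. With either degron (−) library at 48 h after 4 Gy left out, and likewise for those at 0 Gy, RMRP lay between 0.83 and 2.13 and RPPH1 between 0.54 and 1.98. The lowest of these came without the first library after 4 Gy.

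**Figure D5:**
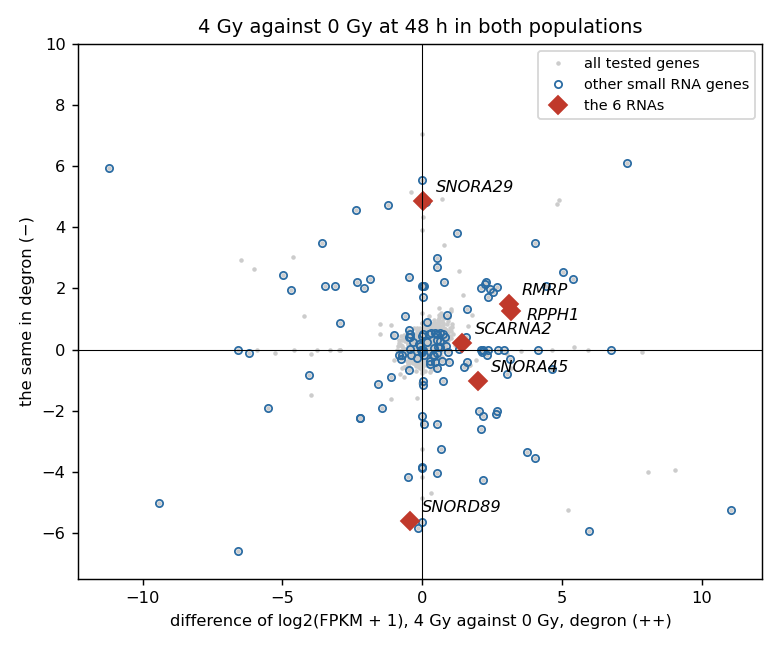
Difference of log2(FPKM + 1) between 4 Gy and 0 Gy at 48 h in degron (++) cells (horizontal) and degron (−) cells (vertical) for all tested genes (grey), other small RNA genes (blue rings) and the 6 RNAs (red diamonds). RMRP (3.10 and 1.48) and RPPH1 (3.16 and 1.26) lie to the upper right, and SNORA29 and SNORD89, at 0 in a degron (−) group, lie near the vertical axis at heights that depend on the pseudocount.

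Between 30 h and 48 h after 4 Gy, RMRP and RPPH1 were higher at 48 h in degron (++) cells, by depth-scaled ratios of 5.30 (95% interval 3.98 to 7.15) and 5.33 (4.13 to 6.98). In degron (−) cells the ratios were 3.39 (2.097 to 5.70) for RMRP and 2.01 (1.27 to 3.27) for RPPH1, whose libraries overlapped between the time points. Over the degron (−) libraries SNORA45 had 0 fragments at 30 h and 5 at 48 h, and SNORD89 had 4 and 0, numbers too low for a fold. These values share the libraries at 48 h after 4 Gy with the contrast that chose the genes.

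The degron (++) and degron (−) libraries at 30 h after 4 Gy took no part in choosing the genes, so the populations were tested there. With limma, 4 of the 6 RNAs had an adjusted p under 0.05, against a background of 79.1% of 12946 tested genes, so the share was near that of all genes. RMRP was higher in degron (++) cells by 1.34 on the log2 scale (standard error 0.43, adjusted p = 0.0178, limma), and RPPH1 by 1.33 (standard error 0.51, adjusted p = 0.037, limma), where 38.3% of all tested genes were called higher. From fragments, the ratios were 2.87 (95% interval 1.73 to 4.94) for RMRP and 2.77 (1.77 to 4.47) for RPPH1, and for both every degron (++) library was above every degron (−) library, as for 43.5% of all tested genes. The call of RPPH1 did not hold when any of the 4 libraries was left out (adjusted p between 0.0507 and 0.165, limma), nor with FPKM rescaled to a sum of 1000000 in each library (adjusted p = 0.0804, limma). The call of RMRP was lost without the second library of degron (++) cells (log2 difference 0.84, adjusted p = 0.136, limma) and without the second library of degron (−) cells (adjusted p = 0.0737, limma).

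SNORA45 passed the threshold as higher in degron (++) cells (log2 difference 5.59, adjusted p = 1.29e-08, limma) on 2 and 2 fragments against 0 and 0. SNORD89 passed as lower (log2 difference -6.34, adjusted p = 1.01e-06, limma) on 0 and 0 fragments against 3 and 1, where 40.8% of all tested genes were called lower. Both log2 differences depend on the pseudocount, since a group was at 0. No fold is given from the fragments, and the exact 95% intervals of their ratios, 0.732 upward for SNORA45 and up to 1.68 for SNORD89, included equality. The standard errors from limma (0.20 for SNORA45 and 0.44 for SNORD89) are taken from the spread between libraries alone. SCARNA2 (3 fragments against 1, adjusted p = 0.130, limma) and SNORA29 (2 against 3, adjusted p = 0.548, limma) did not pass. Of 137 other small RNA genes tested, 16 passed as higher and 1 as lower in degron (++) cells. Of all tested genes, 38.3% passed as higher and 40.8% as lower. The median log2 difference was 0.31 against -0.02 over all tested genes. The 3 greatest changes, in SNORD33, SNORD83B and SNORD83A, were all against 0 in both degron (−) libraries. SNORD33 had 912 and 796 FPKM in degron (++) cells, where 1 fragment was worth 798 FPKM at the depth named above.

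The host and neighbouring genes of these RNAs were listed in the same libraries. SNORA45 lies in an intron of RPL27A, a ribosomal protein gene, in all 8 of its transcripts that span the site. SNORA29 lies in an intron of TCP1, which codes for a chaperonin subunit, in 12 transcripts and in an exon in 1. SNORD89 lies in an intron of a single RNF149 transcript that is not coding. RPPH1 lies 174 bases from PARP2, a DNA repair gene, and RMRP 271 bases from CCDC107, each pair on opposite strands.

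None of the 5 genes passed the threshold between 4 Gy and 0 Gy at 48 h in either population, and RNF149 in degron (−) cells came nearest (adjusted p = 0.117, limma). Where SNORA45 went from 2 fragments to 8 over the degron (++) libraries, RPL27A had 87.1 and 80.6 FPKM at 0 Gy and 84.1 and 93.5 FPKM after 4 Gy. In the same libraries CCDC107, beside RMRP, had 5.13 and 4.93 FPKM at 0 Gy and 4.87 and 5.96 FPKM after 4 Gy, and PARP2, beside RPPH1, had 26.0 and 27.7 against 27.2 and 28.0 FPKM. The libraries of these genes overlapped between the doses. At 30 h after 4 Gy, CCDC107 was lower in degron (++) cells (log2 difference -1.92, adjusted p = 5.65e-07, limma) while RMRP was higher, and PARP2 was higher by 0.29 (adjusted p = 0.00105, limma). RNF149 was higher by 0.73 (adjusted p = 3.69e-06, limma), TCP1 lower (-0.26, adjusted p = 0.000692, limma), and RPL27A did not pass (0.01, adjusted p = 0.903, limma).

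The proteins that work with these RNAs were counted from lists. Of 10 genes of RNase MRP and RNase P proteins, none passed between 4 Gy and 0 Gy at 48 h in degron (++) cells (limma, 1 at unadjusted p under 0.05, median log2 difference 0.02) or in degron (−) cells (0 at unadjusted p under 0.05, median 0.00). All tested genes had a median of 0.00 and 0.01 in these comparisons, and 1.82% and 4.73% of them passed. Of 25 genes of RNA polymerase III and its factors, SNAPC1, a subunit of the complex that binds small nuclear RNA promoters, passed as higher in both, from 22.5 and 22.8 to 29.4 and 29.3 FPKM in degron (++) cells (log2 difference 0.36, adjusted p = 0.0261, limma). In degron (−) cells it went from 12.5 and 12.8 to 15.2 and 15.7 FPKM (0.27, adjusted p = 0.0355, limma). Of 17 genes of snoRNP and Cajal body proteins, NOP56 (0.18, adjusted p = 0.025, limma) and NOLC1 (0.15, adjusted p = 0.0469, limma) passed as higher in degron (++) cells, and none in degron (−) cells, where 3 had an unadjusted p under 0.05. Of 20 genes of the RNA exosome and its adaptors, none passed in either (limma, 2 at unadjusted p under 0.05 in each).

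The other small RNA genes form the closest set for comparison with RMRP and RPPH1, but they had few fragments. Values above 0 of the 134 genes with a step had a median of 2 fragments, and 35.9% were 1 fragment. A rise is hard to detect at so few fragments, so the calls do not set RMRP and RPPH1 apart. Of 137 other small RNA genes tested, 0 passed between 4 Gy and 0 Gy at 48 h in degron (++) cells (limma, 16 at unadjusted p under 0.05). Their median log2 difference was 0.28. In degron (−) cells 2 passed, both higher (median 0.00), namely SCARNA7 at 1.15 and 1.24 FPKM against 0 and 0, and SCARNA10 at 1.15 and 0.620 FPKM against 0 and 0. For these RNAs of 330 bases 1 fragment was worth 0.683 FPKM, so the calls again rest on a few fragments. TERC, the telomerase RNA, had 8 and 5 fragments at 0 Gy, 3 and 0 at 30 h, and 9 and 6 at 48 h after 4 Gy in degron (++) cells, and its libraries at 48 h overlapped between the doses. Between 30 h and 48 h after 4 Gy, 1 of the 137 passed in degron (++) cells, as higher, and 4 as higher and 1 as lower in degron (−) cells, where 1.21% and 7.18% of all genes passed.

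Among the other lists, clustered histone genes, most of whose mRNAs also lack a poly(A) tail, had 9 of 44 tested higher and none lower between 4 Gy and 0 Gy at 48 h in degron (++) cells, and 7 higher and none lower in degron (−) cells. The background was 1.42% of genes called higher for degron (++) cells and 3.85% for degron (−) cells, and the medians of the list were 0.67 and 0.36. HIST1H4H went from 5.08 and 9.39 to 20.2 and 21.9 FPKM in degron (++) cells (log2 difference 1.47, adjusted p = 0.0253, limma). In degron (−) cells it went from 3.96 and 4.11 to 15.4 and 17.5 FPKM (1.79, adjusted p = 0.00581, limma). Histone genes share reads with near-identical copies, so single values are uncertain. Of 14 host genes of small nucleolar RNAs, SNHG12 alone passed in degron (++) cells (0.26, adjusted p = 0.0335, limma) and none in degron (−) cells (2 at unadjusted p under 0.05). Of 66 tested microRNA precursor genes none passed in either population (limma, 9 and 5 at unadjusted p under 0.05).

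The genes whose log2(FPKM + 1) was most like that of each RNA over the 12 libraries are given as a description, since libraries of a population share their source and since the 6 RNAs were chosen on the 48 h libraries among these. The pattern nearest to RMRP was that of RPPH1 (Pearson r = 0.96), followed by SCARNA2 (0.91) and RNU6ATAC (0.90), an RNA of the minor spliceosome with at most 2 fragments in a library. For RPPH1 they were RMRP, SCARNA2 (0.95) and SNORA4 (0.91), and for SCARNA2 they were RPPH1, TMX2 (0.92) and RMRP. SNORA45 was nearest to the C/D RNAs SNORD88B (0.93), SNORD83A (0.93) and SNORD83B (0.89), which like it were at 0 in both degron (−) libraries at 30 h. Among the 3 genes nearest to SNORA29 were DHRS7B (0.86) and CCDC134 (0.86), and SNORD89 was nearest to JUND (0.88), ATP1A1OS (0.82) and BCL3 (0.795). Between SNORA45, SNORA29 and SNORD89 themselves r was -0.31 to -0.39. With at most 5 fragments in a library, these values cannot tell whether they share a pattern.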

How the data were processed

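Total RNA of degron (++) and degron (−) PANC-1 cells was sequenced in 12 libraries made with a stranded mRNA kit, 2 in each of 6 groups. The authors computed FPKM and deposited them per gene symbol and library. The submitters' processing notes name TopHat2 2.1.1, Bowtie2 2.2.8, SAMtools 0.1.18, Cuffdiff 2.2.1 and hg19, without roles. In these FPKM, the shorter an RNA, the more 1 fragment was worth, and more steeply than length alone gives. Groups were taken from the titles of the libraries.

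The 6 RNAs and the gene lists were chosen with earlier results of these data known. The genes named beside them are host and neighbouring genes, at most the 3 greatest changes past the threshold per list and comparison, TERC, and for each RNA the 3 genes with the highest Pearson r. SNORA3 and SNORA17 were named after their values were seen. A gene that the rule selects is not reported here. Near-identical copies may share fragments.

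Differences were tested with limma 3.58.1 (lmFit, eBayes with trend) in R 4.3.3 on log2(FPKM + 1). Genes entered where 2 or more libraries reached 1 FPKM, which left 12946. The fit had 6 group means over all 12 libraries, tests were two-sided, and calls needed a p under 0.05 after Benjamini-Hochberg adjustment. All 6 RNAs passed the filter, SCARNA2 through the degron (++) libraries at 48 h after 4 Gy alone. A simulation with changed genes was used to test the fit.

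Whole fragments were recovered from the steps between FPKM values, a step added after the data were seen. Poisson intervals and conditional intervals of ratios, both exact, were computed from them with Python 3.11.15 and scipy 1.17.1, and cover counting error only. A library at 0 allows up to 3 fragments. Lengths came from RefSeq (GRCh38.p14), which for RMRP and RPPH1 differ by a few bases from GENCODE v29, the source of the sequences. No promoter entry matched the 6 RNAs.

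Tried as alternatives were a pseudocount of 0.1, a filter at FPKM 5 or none, quantile normalization, rescaling to a sum of 1000000 (TPM) with and without small RNA and microRNA genes, eBayes with no trend, a block for the replicate number, fits restricted to the groups compared, and leave-one-out fits.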

Additional observations from a re-analysis of the deposited data

Results flagged for a closer look

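SNORA45 moved in opposite directions in the populations between 4 Gy and 0 Gy at 48 h. Its mean FPKM was higher by 67.8 after 4 Gy in degron (++) cells (8 fragments against 2 over the libraries) and differed by -50.2 in degron (−) cells (5 fragments against 9). Every irradiated library was above every unirradiated one in degron (++) cells and below in degron (−) cells. Whether the populations differ in this was not tested, since this contrast chose the gene.

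SNORD89 did so between 48 h and 30 h after 4 Gy, where its mean FPKM differed by 48.6 in degron (++) cells (2 fragments against 0) and by -90.7 in degron (−) cells (0 fragments against 4). This difference was not tested either, because it shares the libraries at 48 h after 4 Gy.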

How the results depend on the processing

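Between the populations at 30 h after 4 Gy, 79.1% of all tested genes passed in the fit described above. This share is not given for the alternatives, so nothing about the 6 RNAs is read from how many of them passed. Of the 6 RNAs, 4 passed in this comparison. This number was 2 to 3 with 1 library left out, and 2 when only RNAs with over 3 fragments in each library of a group were counted, a choice made after seeing the data, which leaves RMRP and RPPH1. It was 3 without a filter and with either rescaling, where RPPH1 was lost (adjusted p 0.0599, 0.0804 and 0.0543, limma), and 5 with quantile normalization, where SCARNA2 passed (adjusted p = 0.0149, limma). Over all alternatives the adjusted p of RMRP ran from 0.00719 to 0.136 and that of RPPH1 from 0.00393 to 0.165.

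Among other small RNA genes, 0 passed between 4 Gy and 0 Gy at 48 h in degron (++) cells, and 8 when only the libraries compared were fitted. The number was 2 in degron (−) cells, 1 without a filter, 0 with the filter at FPKM 5, 1 without trend, 1 with the replicate block and 4 with only the libraries compared. Between 30 h and 48 h after 4 Gy it was 1 in degron (++) cells, 0 with the pseudocount 0.1, 0 with the filter at FPKM 5 and 7 with only the libraries compared. It was 5 in degron (−) cells. With 1 library left out these numbers ran from 0 to 2, 1 to 5, 0 to 1 and 5 to 8, in the order given.

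As descriptions, the log2 difference between 4 Gy and 0 Gy moved by more than the spread between replicates for SCARNA2, from 1.42 to 3.33 with the pseudocount 0.1 and to 3.50 from fragments in degron (++) cells. It went from 1.99 to 1.91 for SNORA45 in degron (++) cells with quantile normalization. This small change exceeded the spread because the replicates held equal fragments, 1 and 1 at 0 Gy and 4 and 4 after 4 Gy. A smaller pseudocount by its construction widens differences from a gene at 0, so no value is given for SCARNA2, SNORA29 and SNORD89 in degron (−) cells. Without the first degron (−) library at 48 h after 4 Gy, RMRP went from 1.48 to 0.83 and RPPH1 from 1.26 to 0.54.

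The numbers of the replicates did not pair the libraries: correlations of deviations between same-numbered libraries were -0.038 to 0.122 over 15 pairs of groups, of which 2 exceeded 0.1. With the replicate block, 4 of the 6 RNAs passed at 30 h, and the share of all tested genes with this block is not given. Leaving 1 library in a group assumes that it varies like the other groups.

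The depth limits these RNAs unequally, since SCARNA2, SNORA45, SNORA29 and SNORD89 had at most 7 fragments in a library, and 35.9% of values above 0 of other small RNA genes were 1 fragment.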
